A study of Mus musculus with 2 samples.

Results

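The genes examined here encode 10 amino acid transporters of the plasma membrane or their subunits, namely Slc3a2, Slc7a5, Slc7a1, Slc7a2, Slc1a4, Slc1a5, Slc38a1, Slc38a2, Slc6a6 and Slc6a9. They were chosen by name, and each matched exactly 1 of the 44291 genes in the deposited tables. RNA-seq was made from fibro-adipogenic progenitors (FAPs), mesenchymal cells of skeletal muscle that can become adipocytes, isolated from mouse muscle and labelled as wild type. The methods of the study give C57BL/6 mice aged 6 to 8 weeks as the animals it used. One library came from FAPs given platelet-rich plasma (PRP) and the other from FAPs given vehicle, and both are labelled as under adipogenic differentiation, for which the medium was DMEM with serum, IBMX, dexamethasone and insulin. The labels call the treatment PRP, while the study's text speaks of exosomes from PRP of young human donors, and the names PRP and control follow the labels. Each group had 1 library, so every difference is one between 2 libraries, without a replicate check and without a test of the treatment.

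Amino acid transporters of the solute carrier families bring amino acids across the cell membrane, many of them by exchange against another amino acid or by cotransport with sodium. Slc3a2 encodes the CD98 heavy chain, a glycoprotein that carries no substrate itself and brings several Slc7 light chains to the surface, among them LAT1, the product of Slc7a5, which takes up leucine and other large neutral amino acids. Slc7a1 and Slc7a2 encode the arginine and lysine carriers CAT1 and CAT2, Slc1a4 and Slc1a5 the neutral exchangers ASCT1 and ASCT2, and Slc38a1 and Slc38a2 the sodium-coupled glutamine and alanine carriers SNAT1 and SNAT2. Slc6a6 encodes the taurine transporter and Slc6a9 the glycine transporter GlyT1. Several of these genes are known targets of ATF4, the transcription factor of the amino acid response, and the leucine and glutamine that enter through them feed the kinase complex mTORC1.

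The unit was FPKM, the reads of a gene scaled by exon length and by the assigned reads of the library. Fold changes are differences of log2(FPKM + 1), PRP minus control, a scale that understates differences at low values. The libraries held 40120843 (PRP) and 34139741 (control) assigned reads, and genes of the mitochondrial genome took 2.06% and 3.70% of the summed FPKM. All 5 FAP markers examined were expressed in both libraries and all were lower in the PRP library, with Pdgfra at 19.8 against 27.95 FPKM and Dpt at 18.8 against 50.2 FPKM, and with a summed level of 171.8 against 239.3 FPKM. The 5 adipocyte markers summed to 48.1 against 41.2 FPKM, with Fabp4 at 40.7 against 33.6 FPKM, Adipoq at 5.49 against 5.22 FPKM, Plin1 at 1.73 against 2.10 FPKM and Cidec and Lep below 0.25 FPKM. Of the macrophage markers Cd68 had 4.56 against 2.31 FPKM, with Ptprc and Adgre1 below 0.06 FPKM, and of the endothelial markers Kdr had 4.23 against 1.499 FPKM, with Pecam1 and Cdh5 below 0.2 FPKM. The 4 macrophage markers summed to 5.20 against 2.84 FPKM and the 3 endothelial markers to 4.51 against 1.64 FPKM. The 4 myogenic markers summed to 2.91 against 3.43 FPKM, nearly all from Des, with Pax7 and Myog listed at 0 in both libraries. The 4 platelet markers summed to 0.636 against 0.365 FPKM, with Gp9 and Ppbp listed at 0 in both. The part of these shifts in the transporter values was not tested, and fewer cells of a type cannot be told apart from less RNA per cell in such bulk samples.

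All 10 transporter genes reached a mean of 1 FPKM over both libraries, the level required of a tested gene, as did 13401 genes in all. Of the 10 genes, PRP values were above control values for 7 and below them for 3, against 50.9% of all tested genes with a higher PRP value. Only Slc3a2 was at least 2-fold higher, a change that 2.00% of all tested genes showed, and none of the 10 was at least 2-fold lower (0.828% of all tested genes). At 1.5-fold, 2 of the 10 were higher (6.15% of all tested genes) and 0 were lower (4.57%). The median log2 fold change was 0.27 over the 10 genes and 0.01 over all tested genes. With so few members, these counts describe the libraries and nothing more.

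**Figure D1:**
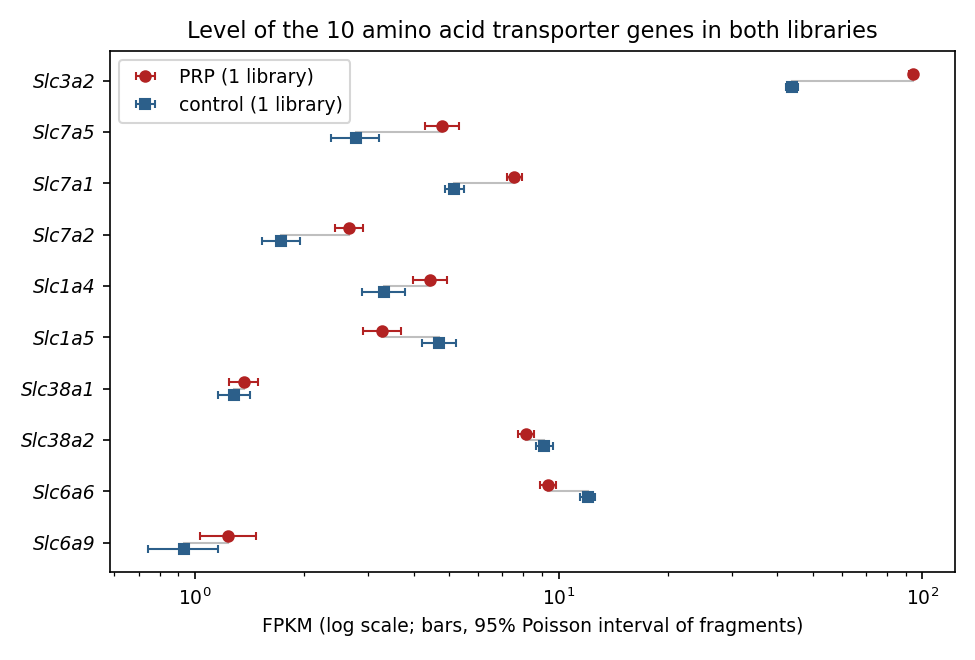
FPKM of each transporter gene (log axis) in the PRP library (red circles) and the control library (blue squares), with 1 library each, and bars for the 95% Poisson interval of the fragments, which covers counting error only. Slc3a2, at 94.1 and 43.8 FPKM, lay above all other members in both libraries, which ranged from 0.934 to 12.05 FPKM.

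Whole read numbers could be recovered for all 10 genes and ran from 164 to 13320 reads per gene and library. The order of the levels was then compared with exact 95% Poisson intervals of the fragments, which cover counting error only, and FPKM values are per length. In both libraries Slc3a2 was highest, followed by Slc6a6 and Slc38a2, and Slc7a2, Slc38a1 and Slc6a9 were the lowest, in that order. In between, the PRP order was Slc7a1, Slc7a5, Slc1a4 and Slc1a5, whereas the control order was Slc7a1, Slc1a5, Slc1a4 and Slc7a5. Neighbours whose intervals overlapped were Slc38a2 and Slc7a1, Slc7a5 and Slc1a4, and Slc38a1 and Slc6a9 in the PRP library. In the control library they were Slc7a1 and Slc1a5, Slc1a4 and Slc7a5, and again Slc38a1 and Slc6a9. By level, Slc3a2 took position 569 of the 13401 tested genes in the PRP library and position 1212 in the control library, while Slc38a1 and Slc6a9 lay at position 12252 or beyond in both.

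The heavy chain set the total of the group. The 10 genes summed to 136.9 FPKM with PRP and to 84.9 FPKM in the control, of which Slc3a2 made up 68.7% and 51.6%. Without Slc3a2 the other 9 genes summed to 42.8 and 41.1 FPKM, a ratio of 1.04. Their higher and lower members nearly cancelled in that sum.

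Slc3a2 (ENSMUSG00000010095, GRCm38 chromosome 19, 8706882 to 8723369, minus strand) had 94.1 FPKM with PRP against 43.8 FPKM without. These levels rested on 13320 and 5283 reads and gave a ratio of 2.15 (95% interval 2.05 to 2.25). It was the highest of the 10 ratios, and 1.56% of all tested genes had a higher log2 fold change than its 1.08. All ratio intervals are exact Clopper-Pearson intervals of the PRP share of fragments, which cover counting error only and compare the libraries, not the treatments. Such an interval excluded no change for 8 of the 10 transporter genes, 5 higher and 3 lower, but also for 52.2% of the 12367 tested genes that had one.

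Slc7a5 (ENSMUSG00000040010, chromosome 8, 121881150 to 121907694, minus strand), the LAT1 light chain that pairs with Slc3a2, had 4.79 against 2.76 FPKM. Its ratio was 1.73 (95% interval 1.44 to 2.09) and its log2 fold change 0.62, which 5.35% of all tested genes exceeded. With the pseudocount of 1, Slc3a2 and Slc7a5 were thus the 2 genes past the 1.5-fold limit. Which genes pass depends on the pseudocount. By the plain FPKM ratio Slc7a2 passed as well, at 1.54, and with a pseudocount of 5 Slc7a5 fell short, with a log2 fold change of 0.33. FPKM of Slc3a2 was 19.7 times that of Slc7a5 with PRP and 15.9 times in the control. This within-library ratio does not depend on how the libraries are scaled, and it differed between them by a factor of 1.24 (exact 95% interval 1.02 to 1.498, counting error only).

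**Figure D2:**
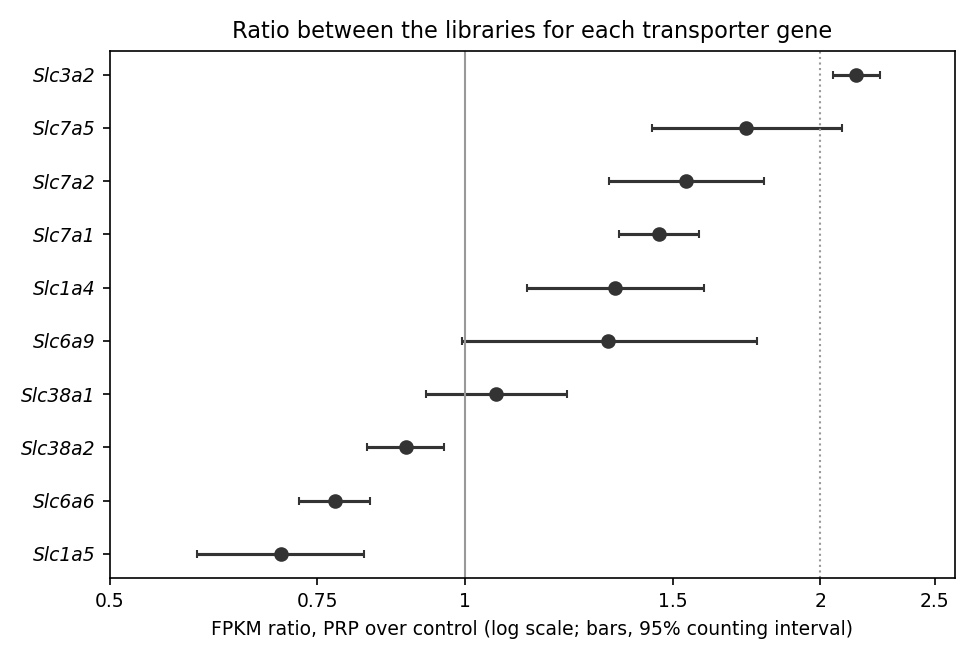
FPKM ratio of the PRP library over the control library for each transporter gene (points, log axis), with the exact 95% counting interval (bars), a solid line at no change and a dotted line at 2-fold. Slc3a2 alone lay wholly above 2-fold, while Slc1a5, Slc6a6 and Slc38a2 lay below no change and the intervals of Slc6a9 and Slc38a1 crossed it.

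The heavy chain also serves other light chains, which were examined as a list of partners. Slc7a11, which encodes the cystine and glutamate exchanger xCT, had 7.98 against 0.766 FPKM, for a ratio of 10.4 (95% interval 8.96 to 12.2). Slc7a6 was nearly level at 2.25 and 2.27 FPKM. Slc7a7 had 1.74 against 1.17 FPKM, and Slc7a8 stayed below 0.4 FPKM in both libraries. The 5 light chains examined, Slc7a5 among them, together had 16.98 against 7.28 FPKM, a ratio of 2.33 beside the 2.15 of Slc3a2. Other Slc7 genes, such as Slc7a10 (0.260 against 0.194 FPKM), were not in this sum. Without Slc7a11 the other 4 light chains had 8.996 against 6.52 FPKM, a ratio of 1.38. The heavy chain stood at 5.54 times the summed light chains with PRP and at 6.02 times in the control. Among the light chains, Slc7a5 made up 28.2% of the PRP sum and 38.0% of the control sum. Slc3a2 had 57.3 times the FPKM of Slc7a11 in the control and 11.8 times with PRP.

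Both cationic amino acid carriers were higher in the PRP library. Slc7a1 (ENSMUSG00000041313, chromosome 5, 148327410 to 148399904, minus strand), which encodes the broadly expressed arginine and lysine carrier CAT1, had 7.55 against 5.17 FPKM, with a PRP over control ratio of 1.46 (1.35 to 1.58). Slc7a2 (ENSMUSG00000031596, chromosome 8, 40862396 to 40922308, plus strand), whose isoforms differ in their affinity for arginine, had 2.65 against 1.73 FPKM, with a ratio of 1.54 (95% interval 1.32 to 1.79). The ratio of Slc7a2 exceeded 1.5, but its log2 fold change of 0.42 did not pass the 1.5-fold limit because of the pseudocount, and that of Slc7a1 was 0.47. Slc7a1 was 2.84 times Slc7a2 with PRP and 2.998 times in the control, a change of 0.948 (95% interval 0.799 to 1.13), so no difference between the paralogs was detectable at this depth. Values are per gene, so the isoforms of Slc7a2 could not be separated, and 6.95% of its exon bases also lie in exons of the noncoding gene Gm26584 on the other strand.

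The neutral amino acid exchangers of the Slc1 family went in opposite directions. Slc1a4 (ENSMUSG00000020142, chromosome 11, 20302180 to 20332713, minus strand), which encodes ASCT1 for alanine, serine and cysteine, had 4.43 against 3.31 FPKM, which gave a ratio of 1.34 (95% interval 1.13 to 1.59). Slc1a5 (ENSMUSG00000001918, chromosome 7, 16781340 to 16798274, plus strand), which encodes the glutamine carrier ASCT2, had 3.28 against 4.70 FPKM, which gave a ratio of 0.698 (95% interval 0.593 to 0.822). It was the lowest ratio of the 10 genes, and 9.44% of all tested genes had a lower log2 fold change than its -0.41. Slc1a4 was thus 1.35 times Slc1a5 with PRP but 0.704 times in the control, so that their order was exchanged. The change of this within-library ratio was 1.92 (exact 95% interval 1.52 to 2.44), the largest difference between paralogs among the 4 families compared. Its interval overlapped that of the next, Slc6a9 over Slc6a6, with a change of 1.71 (1.27 to 2.29), so this order is within counting error.

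The sodium-coupled carriers of the Slc38 family differed by less than 1.2-fold between the libraries. Slc38a2 (ENSMUSG00000022462, chromosome 15, 96687392 to 96699730, minus strand), which encodes SNAT2, a carrier known to be induced when cells lack amino acids, had 8.14 against 9.14 FPKM, for a ratio of 0.891 (95% interval 0.827 to 0.960). Slc38a1 (ENSMUSG00000023169, chromosome 15, 96571418 to 96642913, minus strand), which encodes SNAT1, had 1.36 and 1.28 FPKM. Its ratio of 1.06 (95% interval 0.926 to 1.22) showed no difference detectable at this depth. The genes are neighbours on the same strand, 44478 bases apart. Slc38a1 was 0.167 times Slc38a2 with PRP and 0.140 times in the control, a change of 1.19 (95% interval 1.02 to 1.397).

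Of the sodium- and chloride-dependent carriers, Slc6a6 (ENSMUSG00000030096, chromosome 6, 91684053 to 91759066, plus strand), the taurine transporter gene, had 9.34 against 12.05 FPKM, the second level of the group in both libraries. Its ratio was 0.775 (95% interval 0.724 to 0.830), and 13.3% of all tested genes had a lower log2 fold change than its -0.34. Slc6a9 (ENSMUSG00000028542, chromosome 4, 117834506 to 117875198, plus strand), the gene of the glycine transporter GlyT1, was the least expressed member, with 1.24 and 0.934 FPKM. Its ratio of 1.32 rested on 255 and 164 reads, and the 95% interval of 0.995 to 1.77 included no change. A share of 30.2% of its exon bases overlaps exons of B4galt2, Ccdc24 and Gm17114 on the opposite strand. The kit kept strand, but whether counting used it is not given in the sources used here, so its value is uncertain.

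**Figure D3:**
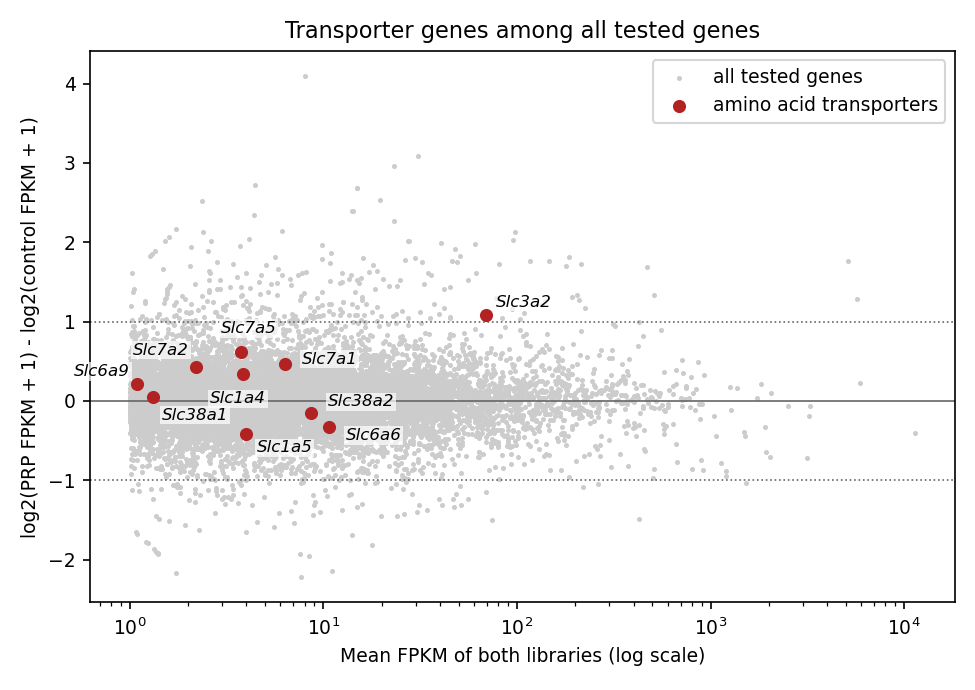
Log2 fold change (PRP over control, pseudocount 1) against mean FPKM of both libraries (log axis) for all 13401 tested genes (grey) and the 10 transporter genes (red), with a solid line at 0 and dotted lines at 2-fold. Slc3a2, at a mean of 69.0 FPKM, lay above the 2-fold line, and the other 9 lay between -0.41 and 0.62.

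To see what the members share in sequence, their proteins, 3' ends and promoters were compared, as descriptions only. Within families, the products translated from GENCODE M21 were 60.8% identical for Slc7a1 and Slc7a2, 59.2% for Slc1a4 and Slc1a5, 53.3% for Slc38a1 and Slc38a2 and 39.7% for Slc6a6 and Slc6a9. Slc7a5 was 25.5% identical to Slc7a1 and 24.3% to Slc7a2. The closest pair in protein sequence, Slc7a1 and Slc7a2, had like ratios, while Slc1a4 and Slc1a5, nearly as close, had ratios on either side of 1.

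The study names let-7f and miR-16 of the exosomes as active cargo, so their mature sequences are shown for the seed, bases 2 to 8, in capitals. The mouse sequences from RefSeq (GRCm38.p6) are used.
mmu-let-7f-5p: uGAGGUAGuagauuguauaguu
mmu-miR-16-5p: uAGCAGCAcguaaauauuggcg

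Seed matches, CTACCTC for let-7f and TGCTGCT for miR-16, were looked for in the longest annotated 3'UTR per gene. None of the 10 transporter genes held the let-7 match, which 9.86% of 10292 tested genes with a 3'UTR held, and 4 of the 10 held the miR-16 match, which 24.6% of those genes held. The 7 miR-16 matches are given with the match in capitals, as mRNA-sense bases on GRCm38, since they are the stretches of these transporters where the seed could pair.
Slc7a1, chr5:148331710-148331734, minus strand: tgggttggctttTGCTGCTcttggc
Slc7a1, chr5:148331512-148331536, minus strand: gagtcctcccccTGCTGCTtgctgt
Slc7a1, chr5:148331339-148331363, minus strand: ggtgcctttgccTGCTGCTggtgag
Slc7a2, chr8:40921986-40922010, plus strand: aataaaaactttTGCTGCTttaact
Slc1a4, chr11:20303451-20303475, minus strand: tccttcctaaaaTGCTGCTgagcta
Slc1a4, chr11:20302438-20302462, minus strand: cacagtaacaaaTGCTGCTgtggac
Slc38a2, chr15:96688309-96688333, minus strand: gacactcccccaTGCTGCTtacttg

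Of the 4 genes with a miR-16 match, Slc7a1, Slc7a2 and Slc1a4 were higher in the PRP library and Slc38a2 was lower. Of the 6 without one, Slc3a2, Slc7a5, Slc38a1 and Slc6a9 were higher and Slc1a5 and Slc6a6 were lower. Slc7a1 held the most matches, 3 in a 3'UTR of 5030 bases, and had a ratio of 1.46. Long 3'UTRs hold more matches by length alone, and those of Slc38a1 (5293 bases) and Slc6a6 (4009 bases) held none. A match is not evidence of a working site, and whether miR-16 acted on these genes was not tested. Over all tested genes 50.9% were higher, and this share was not computed separately for genes with a miR-16 match.

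Promoter windows of 250 bases before to 50 bases after a start (RefSeq, GRCm38.p6) were given for 5 of the 10 genes, Slc3a2, Slc7a1, Slc1a4, Slc38a2 and Slc6a9, in 8 windows. They were searched on both strands for the C/EBP-ATF response element TGATGNAAN, which ATF4 is known to bind, the E-box CACGTG and the cAMP response element TGACGTCA. Over all 32851 windows, 3.95%, 7.15% and 1.79% held these motifs. The single match, which overlapped none of the other motifs, was a C/EBP-ATF response element in Slc1a4, on the strand opposite to the gene, across the start from base -5 to base 4. Its stretch is shown from base -56 to base 4, with the match in capitals.
Slc1a4, chr11:20332710-20332769, minus strand: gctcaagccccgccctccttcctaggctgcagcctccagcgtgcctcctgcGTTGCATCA

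No match in the other 7 windows says only that these letters are not in them, and response elements of such genes can lie outside a window of this length. Slc7a5, Slc7a2, Slc1a5, Slc38a1 and Slc6a6 were not among the windows.

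To place the 10 genes in their pathway, lists of related genes were examined by the same fold change, for tested genes. The counts of each list stand beside 50.9% of all tested genes higher, 6.15% at least 1.5-fold higher and 4.57% at least 1.5-fold lower. Of 32 other plasma membrane transporters, 11 passed that filter, 7 of them higher and 4 lower, with a median log2 fold change of 0.06. Most of this list was hardly expressed, and only Slc7a11 and Slc6a7 went past 1.5-fold. Slc6a7, the proline transporter gene, had 0.622 against 1.52 FPKM (ratio 0.409, 95% interval 0.277 to 0.594), from 86 and 179 reads. The most expressed gene of the list, the creatine transporter gene Slc6a8, had 13.8 FPKM in both libraries.

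Transporters of inner membranes stayed within 1.5-fold on the log2(FPKM + 1) scale, although the plain FPKM ratio of Slc38a7 was 1.53. Of 8 tested genes for lysosomal and other intracellular transporters, 3 were higher and 5 lower, with a median of -0.07. The largest changes were those of Slc38a7, a glutamine and asparagine carrier of the lysosome (5.92 against 3.88 FPKM, log2 fold change 0.50), and of Slc36a4 (1.96 against 2.82 FPKM, -0.37) and Slc38a10 (65.9 against 84.4 FPKM, -0.35). Among the tested relatives of Slc38a10, Slc38a2 and Slc38a6 were also lower, each with a ratio of 0.891. Slc38a7 was higher and Slc38a1 was near no change. Of 7 tested mitochondrial amino acid carriers, 3 were higher and 4 lower, with a median of -0.04. Slc25a44, the branched-chain amino acid carrier of mitochondria, was highest at 12.7 against 8.61 FPKM (log2 fold change 0.52). Sfxn3, a serine carrier, had 7.74 against 10.4 FPKM (-0.38), and Sfxn2 had 1.42 against 1.04 FPKM (0.25).

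**Figure D4:**
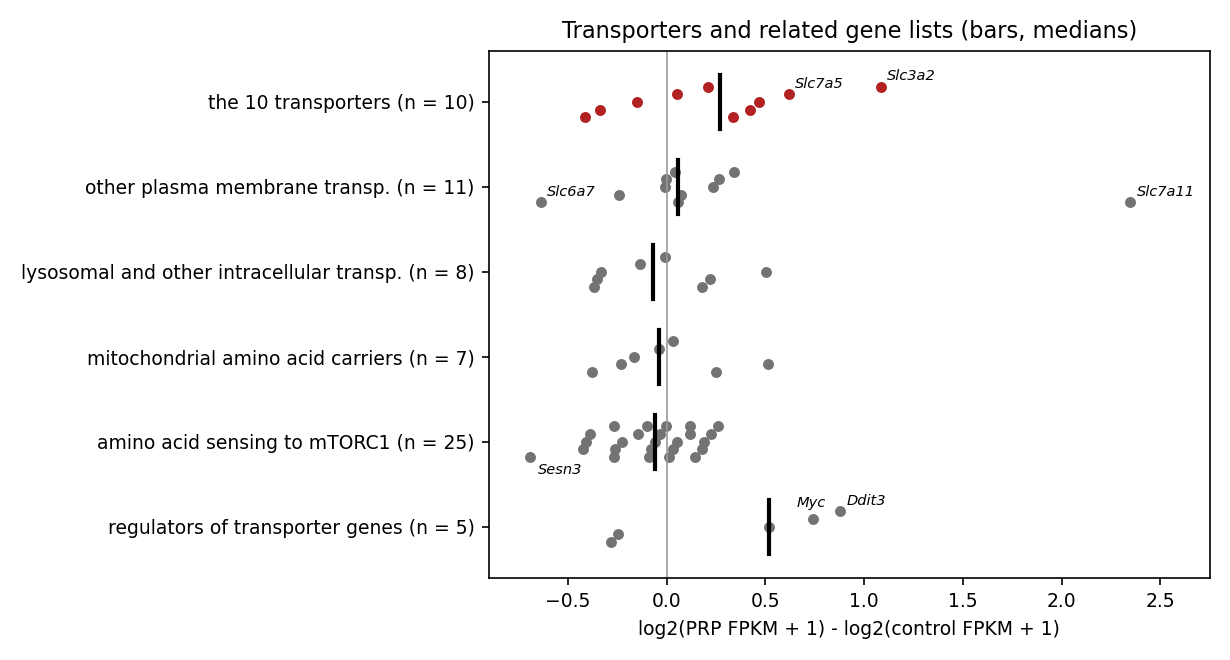
Log2 fold change (PRP over control, pseudocount 1) of each tested gene in the group of 10 transporters (red) and in the related lists (grey), with black bars for medians and names for genes past 1.5-fold. The transporters had a median of 0.27, the 3 transporter lists and the mTORC1 list lay between -0.07 and 0.06, and the 5 regulators had 0.52.

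The genes of amino acid sensing by mTORC1, the kinase complex that amino acids activate at the lysosome, were examined next. Of 25 tested genes, 10 were higher and 15 lower, with a median of -0.06, beside 50.9% higher and a median of 0.01 over all tested genes, and Mtor itself had 5.44 against 6.75 FPKM. The list pools genes of different roles, so these counts give no direction for mTORC1 activity, which was not measured. On the log2(FPKM + 1) scale only Sesn3, which encodes a sestrin of the stress response, went past 1.5-fold, with 0.715 against 1.77 FPKM (ratio 0.403, 95% interval 0.342 to 0.475). By the plain FPKM ratio Sesn1, another sestrin gene (0.649, 0.516 to 0.816), and Mlst8, the gene of an mTOR complex subunit (0.618, 0.474 to 0.805), were also more than 1.5-fold lower. A share of 22.5% of the exon bases of Mlst8 overlaps exons of other genes, so its value is uncertain. The leucine sensor gene Sesn2, an ATF4 target, had 4.42 and 3.90 FPKM with an interval of 0.952 to 1.35 that included no change.

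Of 5 regulators of transporter genes, 3 were higher and 2 lower, with a median of 0.52, beside 50.9% higher over all tested genes. Atf4 had 104.2 against 72.4 FPKM (ratio 1.44, 95% interval 1.37 to 1.51) and Ddit3, which encodes CHOP and acts downstream of ATF4, had 278.7 against 151.2 FPKM (1.84, 1.78 to 1.91). Ddit3 has a second, overlapping entry in the tables, so the split of its reads is uncertain. Myc, a known activator of Slc7a5 and Slc1a5, had 10.4 against 5.83 FPKM (1.79, 1.54 to 2.07). Slc7a5 had a ratio of 1.73 and Slc1a5 a ratio of 0.698. Eif2ak4, the gene of the amino acid sensor GCN2, had 7.35 against 8.89 FPKM. Nfat5, the osmotic regulator of Slc6a6, had 3.48 against 4.44 FPKM (0.783, 0.726 to 0.846), and Slc6a6 had a ratio of 0.775. Whether any of these regulators acted on the transporter values was not tested.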

How the data were processed

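Mouse FAPs labelled as given PRP or vehicle under adipogenic differentiation were profiled by RNA-seq, with 1 library per group, as the labels give them. Per the labels, reads were trimmed with fastp 0.23.4, aligned to mm10 with STAR 2.5.3a and counted with featureCounts. The deposited values are FPKM, which the authors computed in a way not given in the sources used here. Coordinates and exon lengths came from GENCODE M21 (GRCm38).

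With these lengths, 93.7% of genes above 0 gave whole reads (tolerance 0.001 reads) in either library, which gave the depth. Of genes with up to 8 reads, 79.3% (PRP) and 80.3% (control) had even numbers, as when both mates of a pair are counted, so intervals used read numbers divided by 2. Intervals cover counting error only, and whether PCR duplicates were removed is not given in the sources used here. Tested genes had a mean of 1 FPKM or more, and fold changes used a pseudocount of 1. No test was made, since neither group has a replicate. The rule for named genes took all members, list genes past 1.5-fold (or else the 3 with the largest change) and cell type markers, and other genes were named after their values were seen. The members and lists were chosen with earlier results of these data known. Alternatives were pseudocounts of 0.1 and 5, other filters, rescaling, centring and other fold limits. Python 3.11.15, NumPy 2.4.6, pandas 2.3.3, SciPy 1.17.1, Biopython 1.88 and matplotlib 3.10.9 were used, and the procedures were tested on simulated data.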

Additional observations from a re-analysis of the deposited data

How the results depend on the processing

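No transporter gene changed direction under the 7 of 9 alternatives that give fold changes, but only rescaling and centring could have changed one. A pseudocount cannot reverse a difference, and the filters only select genes and leave their fold changes as they were. The filter at a mean of 5 FPKM kept only 4 of the 10 genes. Log2 fold changes ranged from 1.02 to 1.10 for Slc3a2, from 0.33 to 0.77 for Slc7a5, from -0.52 to -0.23 for Slc1a5 and from 0.02 to 0.08 for Slc38a1, and the median of the 10 genes ranged from 0.13 to 0.39. There were 64 such values, including those under the filters, which could not move. Of the 64, 61 moved by less than 0.5 times the width of the gene's counting interval. The exceptions came with a pseudocount of 5, at 0.33 (Slc7a5), 0.30 (Slc7a1) and 0.19 (Slc7a2). No paired analysis was possible because a single library stood for either treatment, and leaving out a library would leave no comparison. Depth limits Slc6a9 most, with 164 reads in the control library.

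Genes at least 2-fold higher and lower numbered 471 and 268 with a pseudocount of 0.1, 84 and 29 with 5, and 154 and 56 when a mean of 5 FPKM was required. With libraries rescaled to equal sums 380 were higher and 216 lower, and with mitochondrial and the 50 most abundant genes kept out of those sums 392 were higher and 250 lower. Both rescalings raise all values, so that the pseudocount of 1 weighs less. At 1.5-fold they were 824 (6.15%) and 612 (4.57%) of the 13401 tested genes, with 2 of the 10 transporter genes higher and 0 lower. At 1.2-fold they were 2734 and 2428 of the same 13401 genes, with 5 of the 10 transporter genes higher and 2 lower. Without a filter, 15 other plasma membrane transporters were higher and 15 lower, and 5 mitochondrial carriers were higher and 6 lower. With a mean of 5 FPKM required, 4 of the 10 genes were left, 2 of them higher and 2 lower. Other plasma membrane transporters then had 0 higher and 1 lower, and likewise intracellular ones. Mitochondrial carriers had 1 and 1, mTORC1 genes 5 and 6, and regulators 3 and 1. The share of all genes that were higher was not computed without a filter or with this stricter one. The stricter filter leaves fewer genes, and lower pseudocounts weigh less on low values.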
